A study of Mus musculus with 48 samples.

Results

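The genes described here are 10 genes of the epithelial-mesenchymal transition (EMT), namely Cdh1, Epcam, Vim, Cdh2, Fn1, Snai1, Snai2, Zeb1, Zeb2 and Twist1. They were taken by symbol from the 50600 Ensembl genes listed in the count tables, and their levels were followed in cytoplasmic and polysomal RNA of mPDAC cells with and without the nucleolin antagonist N6L. All 10 symbols matched 1 gene each. Of these, 9 passed the filter on low counts, and Epcam did not.

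EMT is the programme by which epithelial cells loosen their contacts and take on a motile, fibroblast-like shape. E-cadherin (Cdh1) and EpCAM hold epithelial cells together. N-cadherin (Cdh2), the intermediate filament vimentin (Vim) and fibronectin (Fn1) mark the mesenchymal state, and the Snail, Zeb and Twist transcription factors are known to repress Cdh1. In pancreatic ductal adenocarcinoma the programme is often partial, and tumour cells can carry epithelial and mesenchymal markers together.

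mPDAC is a mouse pancreatic ductal adenocarcinoma cell line, labelled with an FVB/N x C57BL6 background and an age of 8 weeks, so every value describes 1 line. Cells were either left without treatment (NT) or given 50 µM N6L, a pseudopeptide, for 48 h, in 3 cultures each (NT1, NT2 and NT4, and N6L 1, 2 and 3). All cultures received emetine before lysis, which holds ribosomes on mRNA. Nuclei and mitochondria were spun out, 1 part of each lysate was kept as cytoplasmic RNA, and the polysomal fractions of a sucrose gradient were pooled as polysomal RNA, so the cytoplasm and polysome libraries of a culture share a lysate. Poly(A) RNA of the 12 libraries was sequenced in 4 technical replicates, which were summed here.

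Library totals ran from 19519911 to 44972333 counts. Of 10 duct markers, 9 passed the filter. The list summed to 7051 to 9344 CPM (counts scaled by library size) in the NT cytoplasm and 6471 to 7895 CPM in the N6L cytoplasm. Most of it was Krt8, Krt18 and Krt19, with NT cytoplasm means of 2823, 3131 and 1623 CPM, while Cftr was at 1.13 CPM. The remaining duct marker, Epcam, was near 0. The filter also passed 3 of 8 fibroblast, 2 of 4 endothelial and 1 of 5 leukocyte markers, at low levels. Fibroblast markers summed to at most 1.96 CPM in any library, endothelial markers to at most 1.15 CPM and leukocyte markers to at most 2.23 CPM, and none of the 5 endocrine markers exceeded 1 count. Of 6 acinar markers, 4 were at 0 in every library, but the list summed to 29.8 to 86.8 CPM, nearly all of it Cela1. The polysome library of N6L 3 stood apart: the median log2 polysome-to-cytoplasm ratio of the 1641 genes with transcripts of 6 kb and over was -1.30 in this culture, against -0.54 in N6L 1, -0.78 in N6L 2 and -0.31 to -0.24 in the NT cultures. Counts of calls that rest on it are given with and without that culture. Correlations, values of list genes and some values of single genes, such as most TI values (defined below), are given only with it. The labels of 3 of the 4 technical replicates of N6L 2 cytoplasm gave conflicting culture numbers, and leaving them out changed no count of the 10 genes called in the comparisons below.

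Per kilobase of transcript, vimentin led the EMT genes described here. The duct keratins were not placed on this scale. In the NT cytoplasm, mean CPM per kb of the longest coding transcript was 1401 ± 62.8 (SD, n = 3) for Vim, 36.3 ± 8.54 for Snai2, 23.7 ± 1.04 for Cdh1 and 13.0 ± 3.64 for Twist1. Zeb1 followed at 6.78 ± 1.96, Fn1 at 2.31 ± 0.280 and Cdh2 at 1.41 ± 0.157 on the same scale. Zeb2 at 0.484 ± 0.154 and Snai1 at 0.435 ± 0.106 could not be separated, since their cultures overlapped, and Epcam came last at 0.0742 ± 0.0146. All other neighbours in this order had 3 cultures of the higher gene above all 3 of the lower one. In NT polysomes the order was the same but for Snai1 above Zeb2, with overlap between these and between Cdh1 and Twist1. In the N6L cytoplasm Cdh1, at 31.7 ± 1.39 CPM per kb, stood above Snai2, at 21.1 ± 0.682, with no overlap between the cultures, and Zeb1 and Twist1 overlapped. In N6L polysomes the order below Vim was Cdh1, Twist1, Snai2, Zeb1, Fn1, Cdh2, Snai1, Zeb2 and Epcam, where Cdh1 overlapped with Twist1, Twist1 with Snai2, Zeb1 with Fn1, and Cdh2 with Snai1.

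**Figure D1:**
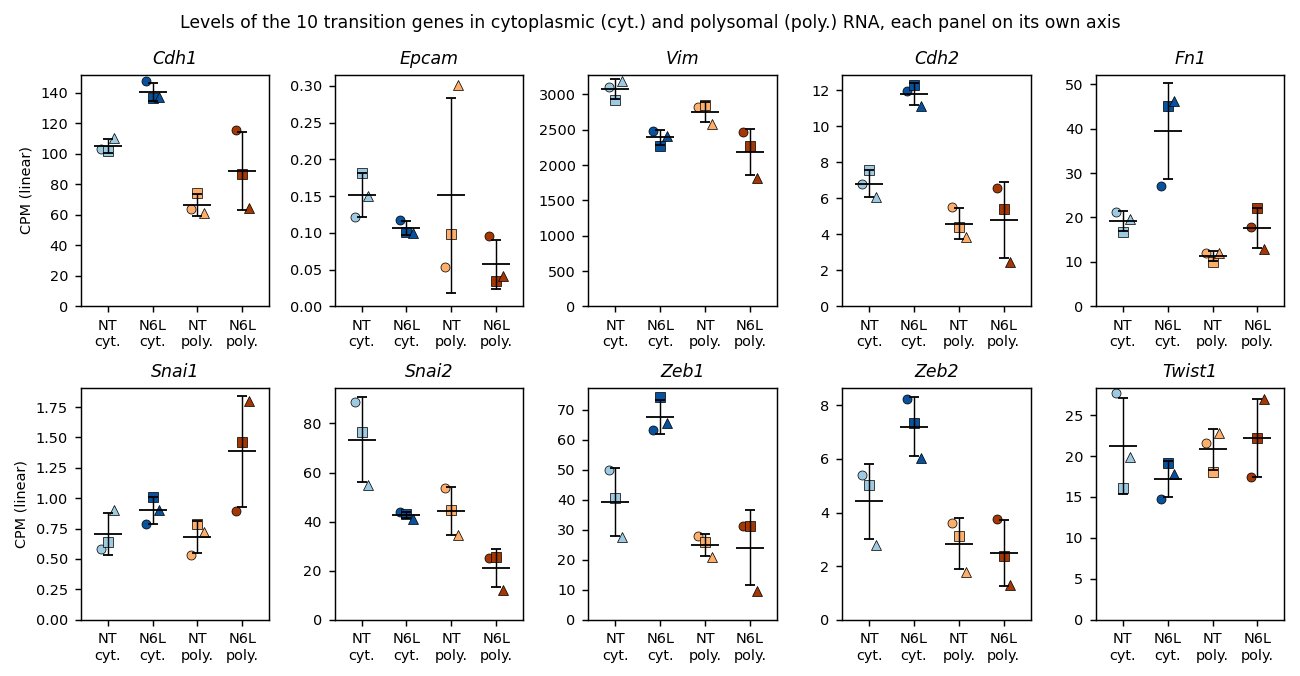
CPM after scaling (linear axes, one per gene) in the 4 groups of 3 cultures, with circles for NT1 and N6L 1, squares for NT2 and N6L 2, triangles for NT4 and N6L 3, and bars for the mean and SD. In the cytoplasm the N6L-treated cultures lie above all NT cultures for Cdh1, Cdh2, Fn1, Zeb1 and Zeb2 and below them for Vim and Snai2. Epcam rests on 1 to 10 counts per library.

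The first question was how N6L treatment moved these mRNAs in the cytoplasm. Fibronectin mRNA rose 2.06-fold and N-cadherin mRNA 1.73-fold, while Snai2 mRNA, encoding the repressor Slug, fell 1.72-fold. These 3 of the 9 tested genes passed an adjusted p of 0.05 (edgeR quasi-likelihood test, Benjamini-Hochberg over 13889 genes), against 28.3% of all genes tested. The 2 genes that rose stand against 14.5% of all genes higher, and the 1 that fell against 13.8% lower. The median log2 fold change was 0.42 over the 9 genes and 0.04 over all genes. Cultures of the treatments did not overlap for 7 of the 9, as was so for 54.9% of all genes tested. In these bulk libraries, fewer cells with a transcript and less of it per cell cannot be told apart, and each level is relative to the rest of its library, so a fall in total polysomal or cytoplasmic mRNA would not show. Scaled by library totals alone and not by TMM, the 13889 genes had a median cytoplasmic log2 fold change of 0.19 in place of 0.04, with 2588 genes called higher and 1363 lower in place of 2013 and 1922. The 9 genes kept their cytoplasmic directions, also relative to that median.

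The same question in polysomal RNA gave 1 call among the 9 genes, Snai2, which fell 2.10-fold, against 9.67% of all genes called, 6.01% higher and 3.66% lower. With library totals alone the calls over all genes were 1082 higher and 312 lower, against 835 and 508. Cultures did not overlap for 4 of the 9 genes, with Fn1 and Snai1 above and Vim and Snai2 below the NT cultures, against 25.6% of all genes tested. Without N6L 3, the polysome comparison called 3 genes, Cdh1 and Fn1 higher and Snai2 lower, beside 7.77% of all genes, and the cytoplasm comparison called 4, with Zeb1 joining at a log2 fold change of 0.80, beside 28.7% of all genes. Cytoplasm and polysome comparisons use libraries of the same cultures and are not independent of each other.

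**Figure D2:**
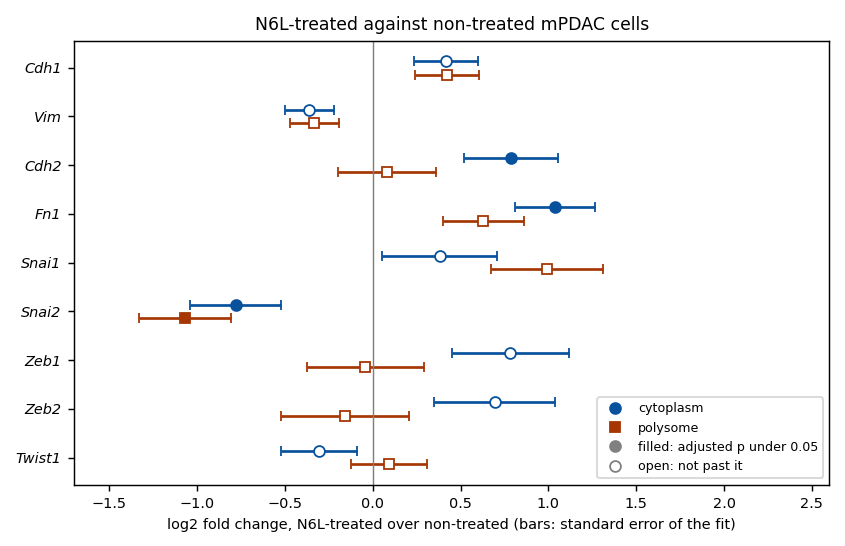
Log2 fold change of N6L-treated over NT cultures for the 9 tested genes (3 cultures a group; bars are standard errors of the edgeR fit), circles for cytoplasm and squares for polysomes, filled where the adjusted p was under 0.05. In the cytoplasm Fn1 and Cdh2 are filled on the positive side and Snai2 on the negative side. In polysomes only Snai2 is filled.

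Cdh1 (ENSMUSG00000000303, mm10 chromosome 8, 106603351 to 106670246, plus strand) encodes E-cadherin, the core adhesion protein of epithelial junctions. Its cytoplasmic level was 103, 102 and 110 CPM in NT1, NT2 and NT4 and 148, 137 and 137 CPM in N6L 1, 2 and 3. The treated cultures were all higher, with a log2 fold change of 0.42 ± 0.18 (SE), which did not pass the test (adjusted p = 0.0951). In polysomes Cdh1 was at 64.1, 74.4 and 61.0 CPM in NT and 116, 86.6 and 64.8 CPM in N6L cultures. There the groups overlapped, N6L 3 lying among the NT cultures, and the log2 fold change was 0.42 ± 0.18 (adjusted p = 0.156), or 0.60 without N6L 3 (adjusted p = 0.0368). Adding length and GC offsets gave a cytoplasmic log2 fold change of 0.08.

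Epcam (ENSMUSG00000045394, chromosome 17, 87635979 to 87651129, plus strand) encodes the epithelial cell adhesion molecule that marks most ductal carcinomas. It was read 4, 4 and 3 times in the NT cytoplasm and 3, 5 and 4 times in the N6L cytoplasm, and 1, 3 and 10 times in NT polysomes and 3, 1 and 1 times in N6L polysomes. Only 5 of the 12 libraries held more than 3 counts. With so few reads a difference between treatments was not detectable, and no fold is given.

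Snail and Zeb factors bind the short E-box CAGGTG and its reverse complement CACCTG, so the promoters of the genes were read for these letters on both strands. RefSeq promoters (GRCm38.p6, 250 bases before to 50 after the start) were matched by symbol for 5 of the 10 genes, Epcam, Vim, Snai1, Zeb2 and Twist1. The motif stood in Epcam and Snai1, 2 of the 5, and in 20.2% of 32851 promoters. Stretches of 30 bases around each match are shown with the motif in capitals, at chr17:87635780-87635809, chr17:87635948-87635977 and chr2:167538057-167538086, all on the plus strand, in which the motifs begin 187, 19 and 126 bases before the start.
Epcam, distal: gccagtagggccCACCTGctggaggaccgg
Epcam, proximal: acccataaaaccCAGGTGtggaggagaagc
Snai1: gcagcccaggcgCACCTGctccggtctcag
Epcam thus had 2 matches and Snai1 had 1, and Vim, Zeb2 and Twist1 had none. Promoters of Cdh1, Cdh2, Fn1, Snai2 and Zeb1 were not read, and a relation of matches to level was not tested. A match is a run of letters only, and no binding was measured here.

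Vim (ENSMUSG00000026728, chromosome 2, 13573927 to 13582826, plus strand) encodes vimentin, the intermediate filament of mesenchymal cells. In the cytoplasm it stood at 3105, 2922 and 3191 CPM in NT and 2487, 2272 and 2411 CPM in N6L cultures. The polysomal levels were 2821, 2850 and 2587 CPM in NT and 2464, 2271 and 1817 CPM in N6L cultures. In both fractions every treated culture lay below every NT culture, yet neither difference passed the edgeR test. The log2 fold change was -0.36 ± 0.14 in the cytoplasm (adjusted p = 0.0643) and -0.33 ± 0.14 in polysomes (adjusted p = 0.143). The cytoplasmic difference was called by DESeq2 (-0.40, adjusted p = 0.0167), with RLE size factors (adjusted p = 0.0467) and with only the 2 groups compared (adjusted p = 0.0273).

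Fn1 (ENSMUSG00000026193, chromosome 1, 71585520 to 71653200, minus strand) encodes fibronectin, a matrix protein. Its cytoplasmic level was 21.2, 16.7 and 19.7 CPM in NT and 27.1, 45.1 and 46.1 CPM in N6L cultures. All treated cultures were higher, N6L 1 less so than the other two, and the log2 fold change was 1.04 ± 0.23 (adjusted p = 0.0063). Fn1 was the gene still called in the cytoplasm when any single culture was left out. With offsets for transcript length and GC content the log2 fold change was 0.57 (adjusted p = 0.0685). In polysomes the levels were 12.04, 10.1 and 12.05 CPM in NT and 17.8, 22.0 and 13.0 CPM in N6L cultures, with no overlap and a log2 fold change of 0.63 ± 0.23 (adjusted p = 0.0967).

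Cdh2 (ENSMUSG00000024304, minus strand) encodes N-cadherin, which takes the place of E-cadherin in classical EMT. In the cytoplasm it stood at 6.81, 7.58 and 6.06 CPM in NT and 11.96, 12.3 and 11.1 CPM in N6L cultures. The groups were well separated, with a log2 fold change of 0.79 ± 0.27 (adjusted p = 0.0418). With length and GC offsets it was 0.41 (adjusted p = 0.130). Leaving out any single culture other than N6L 3 also ended the call, with adjusted p-values from edgeR of 0.0611 to 0.161. In polysomes Cdh2 was at 5.52, 4.39 and 3.86 CPM in NT and 6.55, 5.40 and 2.45 CPM in N6L cultures. These overlapped, N6L 3 being the lowest of all, and the log2 fold change was 0.08 ± 0.28, or 0.39 without N6L 3 (adjusted p = 0.232).

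Snai2 (ENSMUSG00000022676, chromosome 16, 14705852 to 14709385, plus strand) encodes Slug, a zinc finger repressor. It was the only one of the 10 genes called in both fractions. The cytoplasmic level was 88.9, 76.3 and 54.8 CPM in NT and 43.8, 43.2 and 41.2 CPM in N6L cultures. NT cultures were spread widely and treated ones lay close together below them, with a log2 fold change of -0.78 ± 0.26 (adjusted p = 0.0369). The polysomal level was 53.7, 44.7 and 34.5 CPM in NT and 25.3, 25.7 and 12.3 CPM in N6L cultures, again without overlap, and the log2 fold change was -1.07 ± 0.26 (adjusted p = 0.0230). Without N6L 3 it was -0.79 in polysomes (adjusted p = 0.0457). The cytoplasmic call ended without N6L 1, N6L 2, NT1 or NT2 (log2 fold changes of -0.84 to -0.62), and the polysomal call without N6L 2, NT1 or NT2 (-1.24 to -0.91). With library totals alone Snai2 stood at -0.64 in the cytoplasm and -0.97 in polysomes and was called in neither (adjusted p = 0.113 and 0.0579).

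Snai1 (ENSMUSG00000042821, chromosome 2, 167538195 to 167542814, plus strand) encodes Snail, the close relative of Slug. It rested on 10 to 50 counts per library. In the cytoplasm it stood at 0.58, 0.64 and 0.90 CPM in NT and 0.78, 1.01 and 0.90 CPM in N6L cultures, which overlapped (log2 fold change 0.38 ± 0.33, adjusted p = 0.392). In polysomes it was 0.53, 0.79 and 0.72 CPM in NT and 0.89, 1.46 and 1.80 CPM in N6L cultures. Every treated culture was higher there, with a log2 fold change of 0.99 ± 0.32 that did not pass the test (adjusted p = 0.0661). It was 0.77 without N6L 3 (adjusted p = 0.192), and 1.07 with library totals alone (adjusted p = 0.0384) and 0.89 with length and GC offsets (adjusted p = 0.0276), where it was called. Snai1 and Snai2 thus differed in sign in both fractions, in fits where Snai2 alone passed.

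Zeb1 (ENSMUSG00000024238, plus strand) encodes a zinc finger homeobox repressor. Its cytoplasmic level was 50.04, 40.4 and 27.4 CPM in NT and 63.3, 74.1 and 65.6 CPM in N6L cultures. The treated cultures were all higher, but NT cultures were spread widely, and the log2 fold change of 0.78 ± 0.33 did not pass (adjusted p = 0.0893). It was 0.32 with length and GC offsets. In polysomes Zeb1 stood at 28.0, 25.8 and 20.8 CPM in NT and 31.3, 31.2 and 9.73 CPM in N6L cultures. N6L 1 and 2 lay above the NT cultures and N6L 3 below them, and the log2 fold change was -0.04 ± 0.33, or 0.33 without N6L 3 (adjusted p = 0.342).

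Zeb2 (ENSMUSG00000026872, chromosome 2, 44983632 to 45117395, minus strand) is the paralog of Zeb1 and acts on the same E-boxes. In the cytoplasm it was at 5.40, 5.04 and 2.80 CPM in NT and 8.23, 7.33 and 6.05 CPM in N6L cultures. No culture overlapped, and the log2 fold change was 0.69 ± 0.34 (adjusted p = 0.139), or 0.18 with length and GC offsets. In polysomes it was at 3.61, 3.11 and 1.78 CPM in NT and 3.77, 2.37 and 1.31 CPM in N6L cultures, which overlapped (log2 fold change -0.16 ± 0.37, or 0.14 without N6L 3).

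Twist1 (ENSMUSG00000035799, chromosome 12, 33957671 to 33959829, plus strand) encodes a basic helix-loop-helix factor. Its cytoplasmic level was 27.7, 16.1 and 19.9 CPM in NT and 14.7, 19.1 and 17.8 CPM in N6L cultures, and its polysomal level 21.6, 18.05 and 22.8 CPM in NT and 17.4, 22.2 and 27.0 CPM in N6L cultures. The groups overlapped in both fractions. The log2 fold change was -0.30 ± 0.22 in the cytoplasm and 0.09 ± 0.22 in polysomes (adjusted p = 0.296 and 0.825), and in polysomes it was -0.07 without N6L 3.

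The next question was how each mRNA divided between polysomes and the cytoplasmic pool. In NT cells 0 of the 9 genes passed (edgeR), against 0.209% of all genes. An unadjusted p under 0.05 was reached by 3 of them, and by 1855 of the 13889 genes, and DESeq2 called 1, Cdh1, beside 2.02% of all genes. All 9 log2 ratios from the fit were below 0, from -0.76 for Fn1, -0.73 for Snai2 and -0.66 for Cdh1 to -0.03 for Twist1 and -0.01 for Snai1. In N6L-treated cells 6 genes were lower in polysomes than in the cytoplasm and none higher, against 39.0% of all genes called, 20.6% lower and 18.4% higher. Library totals alone gave 1762 genes higher and 3119 lower in polysomes, against 2559 and 2856. Zeb2 was 2.87-fold lower (log2 -1.52 ± 0.36, adjusted p = 0.0072), Zeb1 2.81-fold (adjusted p = 0.0068) and Cdh2 2.44-fold (adjusted p = 0.0055). Fn1 was 2.24-fold lower (adjusted p = 0.0046), Snai2 2.02-fold (adjusted p = 0.0102) and Cdh1 1.58-fold (adjusted p = 0.0137). Vim stood at a log2 ratio of -0.13, Twist1 at 0.37 and Snai1 at 0.60, and none of these passed. Without N6L 3, Cdh2, Fn1, Zeb1 and Zeb2 were still called, beside 11.7% of all genes, and Snai2 at -0.77 (adjusted p = 0.0524) and Cdh1 at -0.49 (adjusted p = 0.0771) were not. Without N6L 2, only Cdh2, Fn1 and Zeb1 were called, beside 8.22% of all genes.

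Ratios per culture show where the groups part. For Zeb1 the log2 polysome-to-cytoplasm ratio was -0.84, -0.65 and -0.40 in NT1, NT2 and NT4 and -1.01, -1.25 and -2.74 in N6L 1, 2 and 3. For Zeb2 it was -0.57, -0.68 and -0.64 in NT and -1.11, -1.60 and -2.15 in N6L cultures. For Cdh2 it was -0.30, -0.78 and -0.64 in NT and -0.86, -1.17 and -2.15 in N6L cultures. In these 3 genes every treated culture lay below every NT culture. Twist1 went the other way, at -0.35, 0.17 and 0.19 in NT and 0.24, 0.22 and 0.60 in N6L cultures. Separation of this kind was found in 4 of the 9 genes and in 29.7% of all genes tested, and each had an exact two-sided permutation p of 0.1, the smallest that 3 against 3 cultures allow.

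The remaining ratios overlapped between treatments. Snai2 was at -0.73, -0.77 and -0.67 in NT and -0.79, -0.75 and -1.74 in N6L cultures, so that N6L 3 alone lay far from the rest. Fn1 was at -0.81, -0.72 and -0.71 in NT and -0.60, -1.03 and -1.83 in N6L cultures. Cdh1 was at -0.68, -0.46 and -0.86 in NT and -0.35, -0.66 and -1.08 in N6L cultures. In these genes N6L 3 was again the lowest culture. Vim stayed between -0.41 and -0.00081 in all 6 cultures, the narrowest span of the 9 genes, and Snai1 between -0.29 and 0.94.

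**Figure D3:**
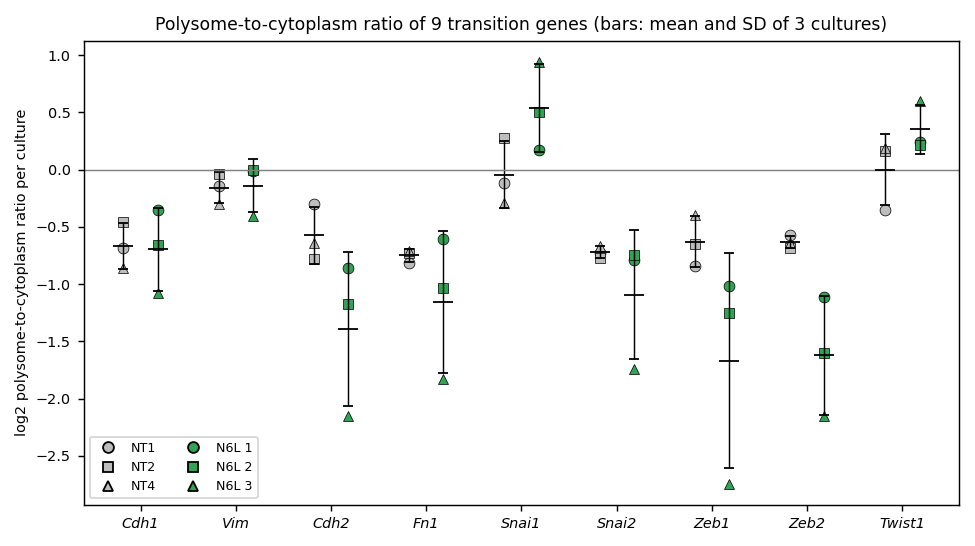
Log2 polysome-to-cytoplasm ratio in each of the 6 cultures for the 9 tested genes, grey for NT and green for N6L-treated, with circles for NT1 and N6L 1, squares for NT2 and N6L 2, triangles for NT4 and N6L 3, and bars for the mean and SD of 3 cultures. The 3 green points of Cdh2, Zeb1 and Zeb2 lie below all grey ones, and N6L 3 is the lowest green point for every gene but Snai1 and Twist1.

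The difference of these ratios between treatments is the translational index (TI). No gene of the 9 passed for TI, with an unadjusted p under 0.05 for 0 of them and 0 calls by DESeq2, and 0% of all 13889 genes passed. The TI was -0.85 ± 0.50 for Zeb2 and -0.82 ± 0.47 for Zeb1 on the log2 scale (adjusted p = 0.555 for both), and -0.71 ± 0.39 for Cdh2. It was 0.00 ± 0.26 for Cdh1, 0.03 ± 0.20 for Vim, -0.29 ± 0.36 for Snai2 and -0.41 ± 0.32 for Fn1. Snai1 stood at 0.61 ± 0.46 and Twist1 at 0.40 ± 0.31. A change of ratio upon N6L treatment was therefore not shown for any of them, with standard errors of 0.20 to 0.50. Leaving out any single culture also gave 0 calls for TI among these genes. Under the alternatives, which include each culture left out, TI ran from -1.10 to -0.44 for Zeb1. It ran from -1.19 to -0.30 for Zeb2 and from -0.98 to -0.30 for Cdh2. Over all genes, 1074 had an unadjusted p under 0.05 for TI.

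Transcript length moved with the ratio across all genes, and more so in treated cells. Among genes with transcripts under 2 kb (4380 genes) the median log2 ratio was 0.21 to 0.22 in NT cultures and 0.36, 0.46 and 0.70 in N6L 1, 2 and 3, while at 6 kb and over it was negative in every culture, by the values given above. Most of the 6 genes called lower in polysomes of N6L-treated cells have long transcripts. The longest coding transcript is 9124 bases for Zeb2, 8315 for Fn1, 5801 for Zeb1, 4843 for Cdh2 and 4430 for Cdh1. The transcripts of Snai1, Twist1, Snai2 and Vim have 1621, 1628, 2021 and 2193 bases. Snai2 was also called lower, with a short transcript. Its mean log2 ratio was -0.72 ± 0.05 in NT and -1.09 ± 0.56 in N6L cultures, below that of Cdh1 in both. The median for genes of 2 to 4 kb was -0.01 to 0.07 in all 6 cultures. Lying below the class medians was not particular to Snai2. In NT cultures the means of all tested genes did so, such as Cdh1 at -0.66 against -0.18 to -0.11 at 4 to 6 kb. In N6L cultures the means of all but Fn1 and Snai1 lay below every median of their class. With offsets for transcript length and GC content and no pairing of fractions, 4 of the 6 genes were called in N6L-treated cells (Cdh1, Cdh2, Snai2 and Zeb1), beside 16.7% of all genes. Fn1 at -0.63 (adjusted p = 0.0653) and Zeb2 at -0.35 (adjusted p = 0.318) were not. With the same offsets in the fit that pairs the fractions of a culture, the log2 ratio in N6L-treated cells became -0.38 for Zeb2, -0.60 for Fn1, -0.89 for Zeb1, -0.95 for Cdh2, -0.85 for Snai2 and -0.43 for Cdh1. That fit, added after seeing the data, called all 6, and Vim too at -0.47 (adjusted p = 0.0194), beside 32.7% of all genes. The part of transcript length in these ratios beyond such a fit was not tested.

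**Figure D4:**
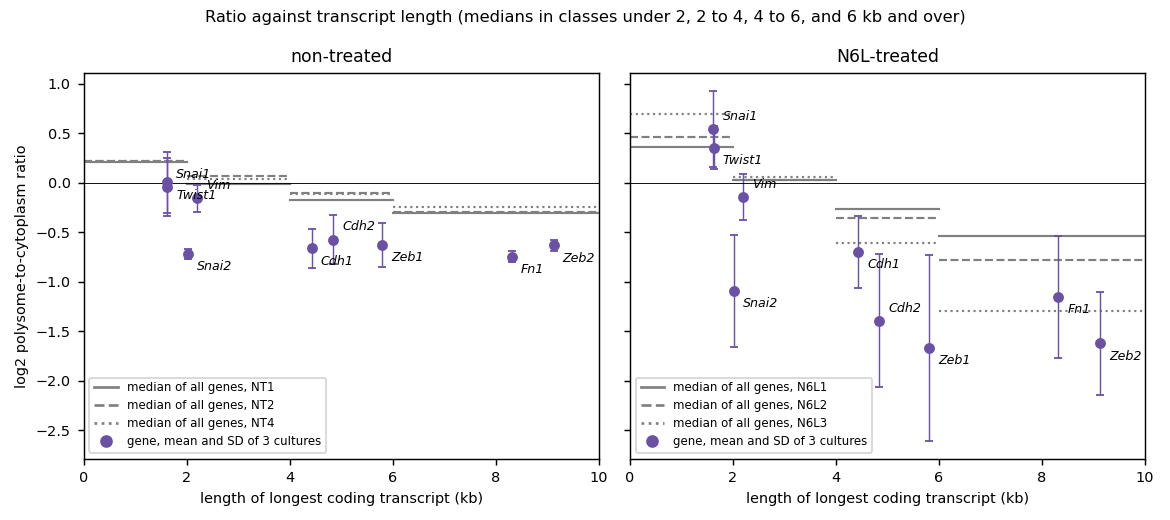
Mean log2 polysome-to-cytoplasm ratio of the 9 tested genes (points, with SD of 3 cultures) against the length of the longest coding transcript in kb, for NT (left) and N6L-treated cultures (right). Grey lines give the median of all genes in each length class and culture. The medians fall with length, to -0.31 to -0.24 in NT and -1.30 to -0.54 in N6L-treated cultures at 6 kb and over. Every gene lies below the medians of its class in NT, and all but Fn1 and Snai1 do in N6L-treated cultures.

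Likeness of pattern was described over the 12 libraries by Pearson's r of log2 CPM, for points that share 4 groups and, in pairs, a lysate. Cdh1 was most like Kirrel (0.971), Asph (0.970) and Antxr1 (0.965), and Vim most like Mboat1 (0.958), Mcu (0.951) and Pdss1 (0.950). Among the EMT genes, Zeb1 was most like Cdh2 (0.97) and Zeb2 (0.95), Vim was closer to Snai2 (0.88) than to any other, and Cdh1 was closest to Cdh2 (0.89). Snai1 and Snai2 ran opposite to each other (-0.84).

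Other genes of the programme were described in 4 lists. In the cytoplasm, 9 of 23 tested junction and polarity genes passed, 7 higher and 2 lower, with a list median of 0.39 on the log2 scale against 0.04 for all genes. Ppl (periplakin) rose by 1.80 and Tjp1 (ZO-1, a tight junction scaffold) by 1.37, while the claudin Cldn6 fell by 0.90 and p120-catenin (Ctnnd1) fell by 0.62. Epithelial identity genes gave 5 calls of 14, 3 higher and 2 lower, with Cd24a at 0.64, Krt7 (a ductal keratin) at -0.97 and Spint2 at -0.88. Of 16 tested mesenchymal genes 3 passed, all higher, among them the secreted factor Ccn2 (1.06), and of 9 other EMT transcription factors and co-factors 2 passed, Sox9 (1.09) and Tcf4 (0.57), both higher. Shares called were 39.1%, 35.7%, 18.8% and 22.2% in this order of lists, beside 28.3% of all genes.

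In polysomes, where 9.67% of all genes were called, 3 of 23 junction genes (13.0%) passed, all higher, among them Jup (plakoglobin) at 0.78 and Nectin2 at 0.77. Mesenchymal genes gave 5 calls of 16 (31.2%), 4 higher and 1 lower, with Ccn2 at 1.34. Cd24a, at 0.56, was the only call of 14 identity genes (7.14%), and Sox9, a ductal progenitor factor, at 1.08 the only call of 9 transcription factors (11.1%). Sox9, Cd24a and Ccn2 were thus called higher in both fractions. Junction genes gave no polysomal call with only the 2 groups compared (2.46% of all genes), without N6L 2 (1.04%) or without NT1 (1.44%). Mesenchymal calls there fell to 2 without N6L 2, NT1 or NT4 (4.44% of all genes without NT4). In polysomes, identity genes gave no call with RLE size factors, with only the 2 groups compared, or without any single culture other than N6L 1. Transcription factors gave no call there without N6L 2. Without N6L 3 the polysomal counts were 4 of 23, 4 of 16, 0 of 15 and 1 of 9, in this order of lists, beside 7.77% of all genes. Genes of both states were among those called higher in the cytoplasm, with Ppl and Tjp1 on the epithelial side and Cdh2, Fn1 and Ccn2 on the mesenchymal side. Other epithelial genes, namely Krt7, Spint2, Cldn6 and Ctnnd1, were called lower there. Vim lay below the NT cultures without a call.

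Between polysomes and cytoplasm, none of the 62 tested list genes passed in NT cells or for TI (edgeR), where 11 and 7 of them had an unadjusted p under 0.05. DESeq2 called 2 mesenchymal genes in NT cells and none for TI. In N6L-treated cells, where 39.0% of all genes were called, 11 of 23 junction genes (47.8%) passed, 8 lower and 3 higher in polysomes, with Tjp1 at -2.04 and Dsp (desmoplakin) at -1.79 against Crb3 at 1.01 and Cldn6 at 0.52. Mesenchymal genes gave 5 lower and 1 higher of 16 (37.5%), with the integrins Itgav at -1.14 and Itgb1 at -1.06 and with S100a4 at 1.18. Of 14 identity genes 4 were higher, among them Muc1 (0.78) and Spint2 (0.76), and 1 was lower (35.7% called). Of 9 transcription factors Twist2 (0.95) and Tcf3 (0.50) were higher and Tcf4 (-1.06) lower (33.3% called). Without N6L 3 these counts were 4 of 23, 2 of 16, 0 of 15 and 1 of 9, beside 11.7% of all genes. With length and GC offsets, 5 junction genes and 1 mesenchymal gene were lower and none higher, beside 16.7% of all genes. In that fit 2 identity genes and 2 transcription factors were higher and none lower, and the identity median was -0.06 in place of 0.34. Offsets with the replicate block called 10, 5, 3 and 2 genes in this order of lists, beside 32.7% of all genes.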

How the data were processed

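The deposited files hold raw counts per Ensembl gene for 48 technical replicates, which the authors made from TruSeq Stranded mRNA libraries. The submitters' processing notes name bcl2fastq 2.18.0.12, STAR, HTSeq 0.5.3 and mm10. For the annotation release and the strand setting of the counting, no source used here gives one. The 4 technical replicates of a library had a chi-square over its degrees of freedom of 1.02 to 1.04, close to counting noise, and were summed, so n is 3 cultures a group. Separate cultures of 1 line measure the spread between cultures only.

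After filterByExpr, 13889 genes remained. The model was edgeR 4.0.16 under R 4.3.3 with TMM factors (quasi-likelihood test, 1 mean for each of 4 groups over all 12 libraries, without a block). Adjusted p-values are Benjamini-Hochberg over all genes, with a limit of 0.05. The common biological coefficient of variation was 0.197. CPM are counts relative to the TMM-scaled library total, and log2 CPM for ratios per culture use a prior count of 2. Ratios were compared by an exact two-sided permutation test. The fits were tried first on simulated data with known changes.

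The genes and lists were chosen with earlier results of these data known. All 10 genes are named, and from each list at most the 2 largest increases and 2 largest decreases past the limit with a mean of at least 10 CPM, except 1 gene that is not reported here. Lengths, GC content and positions came from GENCODE vM21 (50376 of 50600 identifiers matched). Alternatives were RLE size factors, DESeq2 1.42.0, library totals, a minimum of 10 counts per library, no filter, technical replicate a alone, the 3 conflicting technical replicates left out, only the groups compared, offsets for transcript length and GC content, a replicate block and each culture left out. A block with the offsets was added after seeing the data. Cytoplasm and polysomes of a culture come from the same lysate, and their deviations from the group means correlated at 0.04 to 0.23 in N6L and 0.36 to 0.64 in NT cultures. Overlapping antisense genes held at most 183 counts in all libraries together. Depth of 19519911 to 44972333 counts leaves Epcam and Snai1 limited by counting error, and a floor of 3 counts was used for Epcam.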

Additional observations from a re-analysis of the deposited data

How the results depend on the processing

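Calls moved more than directions. In the cytoplasm the 3 calls became 4 with DESeq2 or RLE size factors (Vim added), 5 with no filter, 1 with transcript length and GC offsets (Snai2), 6 with only the 2 groups compared, 6 with the replicate block by label number, and 1 to 4 when a culture was left out. Shares of all genes called in this order were 33.1% (DESeq2), 29.1% (RLE), 17%, 30%, 42.2%, 34.1% and 9.24% to 28.7%, in place of 28.3%. Library totals alone left 2 cytoplasmic calls, Cdh2 and Fn1, beside 28.4% of all genes. Technical replicate a alone left 2, Fn1 and Snai2, beside 27.1%, with Cdh2 at 0.56 (edgeR, adjusted p = 0.134). The labels share only numbers 1 and 2 between treatments. Deviations of those cultures correlated at 0.23 and 0.05 in cytoplasm and at 0.30 and 0.0076 in polysomes. N6L fractions of 1 lysate correlated at only 0.04 to 0.23, so these values cannot tell whether a shared number marks a pair. In polysomes the 1 call became 2 with no filter, with at least 10 counts in every library or with length and GC offsets, 0 with only the 2 groups compared, 1 with the replicate block, and 0 to 3 without a culture. Shares of all genes in this order were 6.66%, 10.2%, 21.3%, 2.46%, 9.76% and 1.04% to 11.2%, in place of 9.67%. For polysome versus cytoplasm, NT cells had 3 calls with no filter (2.5% of all genes), 1 with DESeq2 (2.02%), 2 with the replicate block and offsets (4.02%) and 0 to 1 without a culture (0% to 2.38%). N6L-treated cells had 3 to 6 calls without a culture (8.22% to 41.8% of all genes). In these cells, offsets alone left 4 calls (16.7%) and offsets with the replicate block gave 7 (32.7%), with Fn1, Zeb2 and Vim gained. Without offsets, pairing by lysate changed no call. Signs turned for values near 0. In polysomes, N6L over NT, Zeb1 was 0.068 with library totals, 0.046 with technical replicate a alone and -0.28 to 0.33 without a culture. Zeb2 was 0.12 with replicate a and -0.59 to 0.14 without a culture, Twist1 -0.078 with replicate a, -0.012 with offsets and -0.071 to 0.24 without a culture, and Cdh2 -0.035 with offsets and -0.21 to 0.39 without a culture. The polysome-to-cytoplasm ratio in NT cells was 0.024 for Twist1 with replicate a and -0.17 to 0.18 without a culture, and -0.18 to 0.12 for Snai1. In N6L-treated cells offsets gave -0.048 for Snai1 (-0.033 with the block) and -0.26 for Twist1 (-0.25 with the block). For TI, Vim was -0.025 with library totals, -0.0066 with no filter, -0.15 with offsets, -0.18 with offsets and block and -0.039 to 0.15 without a culture, Twist1 was -0.010 with offsets and -0.048 with the block added, and the difference of mean ratios of Vim was -0.042 with library totals. The causes were not tested. Of all values of single genes under an alternative, 28 turned sign after rounding to 2 decimals, 25 lost and 26 gained a call. The other 654 did none of these. They include the TI of Cdh1, which rounds to 0.00 in the main fit and so could not count as turned. It ran from -0.20 to 0.20 under the alternatives.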
